A study of Mus musculus with 32 samples.

Results

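A set of 10 genes that mark endothelial cells, the lining of blood and lymph vessels, was followed in cultures of mouse primary white adipocytes. They were Pecam1, Cdh5, Kdr, Tek, Cldn5, Aplnr, Clec14a, Esam, Emcn and Eng, each matched by its gene name to 1 row of a deposited table of read counts with 56748 genes. All 10 were protein-coding, and all passed the filter on low counts that left 16984 genes for testing. The set was chosen from known endothelial markers with earlier results of the same libraries in view. Among these, Aplnr and Clec14a stood out for their low cholesterol values in scramble cells. The scramble response to cholesterol is therefore given below as a description without a test, and so are comparisons of Aplnr and Clec14a with the scramble cholesterol libraries. Scramble control and scramble cholesterol libraries both entered that response, so tests of the siRNAs against either are not independent of the choice.

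The cells were prepared from subcutaneous adipose tissue of mice and labelled as primary white adipocytes, and the labels give neither age nor sex of the mice. Cells received a scramble siRNA (labelled WT), siNfe2l1, siAtf3 or siNfe2l1+siAtf3, and no group went without siRNA. Each of these was combined with control treatment or with 400 µM cholesterol carried on methyl-β-cyclodextrin for 6 h, which gave 8 groups of 4 libraries, 32 in all. Libraries within a group carry the label of biological replicates, with no word on separate animals, so p-values measure only the spread between them, which may be technical. Whether the control treatment held the carrier is not stated, and cholesterol and its carrier cannot be told apart. The study concerned the transcription factors Nfe2l1 and Atf3 in the inflammatory response of fat cells to cholesterol.

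Endothelial cells hold together through junctions built from Cdh5 (VE-cadherin), Cldn5 (claudin-5), Esam and Pecam1 (CD31). Their growth and quiescence are set by receptors on the surface, among them Kdr (VEGF receptor 2), Tek (the angiopoietin receptor TIE2), Aplnr (the apelin receptor) and Eng (endoglin, a co-receptor for BMP9 and TGF-β). Emcn (endomucin) and Clec14a are surface glycoproteins of the same cells. White adipose tissue holds a dense capillary bed, and vascular cells can be carried into cultures made from its stromal fraction.

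Sequence upstream of the start site is shown for 3 markers whose cholesterol responses differ in direction and size: Clec14a, which was among the lowest, Kdr, which was lower, and Cldn5, which was higher. The stretches are the 250 bases before the RefSeq start in GRCm38.p6, a different build from that of the counts. Windows were found for 6 of the 10 markers. Capitals mark AGGAA, letters found in ETS motifs, or its reverse complement, and every other base is in lower case. The shorter core GGAA that ETS motifs share was not marked or counted, and it occurs unmarked, as in the Kdr window. Clec14a lies on the minus strand (chr12:58269259-58269508), Kdr on the minus strand (chr5:75978456-75978705) and Cldn5 on the plus strand (chr16:18776597-18776846).
Clec14a: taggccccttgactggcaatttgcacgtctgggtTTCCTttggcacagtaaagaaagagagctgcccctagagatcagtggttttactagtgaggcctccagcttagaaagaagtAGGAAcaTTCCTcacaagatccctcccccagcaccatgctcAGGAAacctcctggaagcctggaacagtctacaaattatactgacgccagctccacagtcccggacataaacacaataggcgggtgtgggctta
Kdr: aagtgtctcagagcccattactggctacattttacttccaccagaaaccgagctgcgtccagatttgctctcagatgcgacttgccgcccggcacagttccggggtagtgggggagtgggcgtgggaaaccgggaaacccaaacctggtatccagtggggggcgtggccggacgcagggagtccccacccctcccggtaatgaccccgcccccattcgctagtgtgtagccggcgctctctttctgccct
Cldn5: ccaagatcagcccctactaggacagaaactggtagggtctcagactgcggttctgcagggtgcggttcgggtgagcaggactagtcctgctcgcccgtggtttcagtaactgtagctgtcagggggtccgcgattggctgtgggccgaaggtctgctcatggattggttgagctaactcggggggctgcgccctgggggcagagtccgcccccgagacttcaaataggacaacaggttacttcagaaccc

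The Clec14a window held 4 matches to AGGAA on either strand, and the Kdr and Cldn5 windows held 0. Over the 6 windows, 4 held at least 1 match, against 60.3% of all 32851 windows of that length. The letters ACAAT, found in SOX motifs, occurred in 3 of the 6 windows and in 27.7% of all. CACCC, found in KLF motifs, occurred in 5 of the 6 and in 52% of all, while GATAA (22.6% of all) and the AP-1 letters TGANTCA (6.75% of all) occurred in none of the 6. Both strands were searched, and the letters of the 5 motifs do not contain one another.

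Total counts ran from 23457384 to 33828418 per library, the second highest being 28391112, and levels are given as CPM, counts scaled to a common library size. In a principal component analysis of 1000 variable genes, component 1 held 80.2% of the variance and separated cholesterol from control libraries. Libraries 3 and 4 of siNfe2l1 with cholesterol were the lowest cholesterol libraries on it, at 27.7 and 24.04, against 40.5 and 34.3 for libraries 1 and 2. These values stepped down without a clear gap. With cholesterol, scramble stood at 37.1 to 43.6, siAtf3 at 29.4 to 35.2 and both siRNAs at 28.6 to 33.7. Counts and medians of the markers that include siNfe2l1 cholesterol libraries 3 and 4 are given with and without those 2 libraries. Nfe2l1 mRNA was at 15.2% of scramble with siNfe2l1 in control and 14.7% in cholesterol, and at 23.4% and 19.3% with both siRNAs. Atf3 mRNA was at 37.8% and 10.3% with siAtf3, and at 57.2% and 12.8% with both. With cholesterol Atf3 still went from 10.1 to 40.9 CPM with siAtf3 and from 15.3 to 50.8 CPM with both. These cholesterol levels lay above the 26.8 CPM of scramble control.

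The labelled cell type was checked against its markers. Adipoq, the adipocyte hormone, stood between 715 and 1003 CPM over the group means, and Plin1, a coat protein of lipid droplets, between 1613 and 2197 CPM. Genes of other cell types were present as well, among them Col1a1 of fibroblasts at 1772 to 11376 CPM, the macrophage receptor Adgre1 at 4.47 to 19.1 CPM and the endothelial genes described here. Lymphatic endothelial markers were close to 0: Lyve1 had group means of 0.208 to 0.598 CPM and Prox1 of 0.248 to 0.842 CPM.

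In scramble cells with control treatment the 10 markers differed widely in level. Per kilobase of gene length, Eng (chr2:32536607-32572681, plus strand, GRCm39) stood highest with 60.5 CPM per kb, followed by Cdh5 (chr8:104828257-104871143, plus strand) with 46.8 CPM per kb. Pecam1 (chr11:106545043-106641454, minus strand) had 25.9, Kdr (chr5:76093487-76139118, minus strand) 20.4 and Esam (chr9:37439374-37449615, plus strand) 16.9 CPM per kb. The remaining 5 were lower. Cldn5 (chr16:18595597-18597012, plus strand) had 8.19, Clec14a (chr12:58311506-58316076, minus strand) 6.11 and Aplnr (chr2:84966569-84970267, plus strand) 5.35 CPM per kb. Emcn (chr3:137046828-137137946, plus strand) had 4.87 and Tek (chr4:94627526-94763213, plus strand) 1.18 CPM per kb. With cholesterol in the same scramble cells this order changed at the top: Cldn5 led with 52.7 CPM per kb, ahead of Cdh5 with 37.3 and Eng with 30.2, and Aplnr was last with 0.0432.

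**Figure D1:**
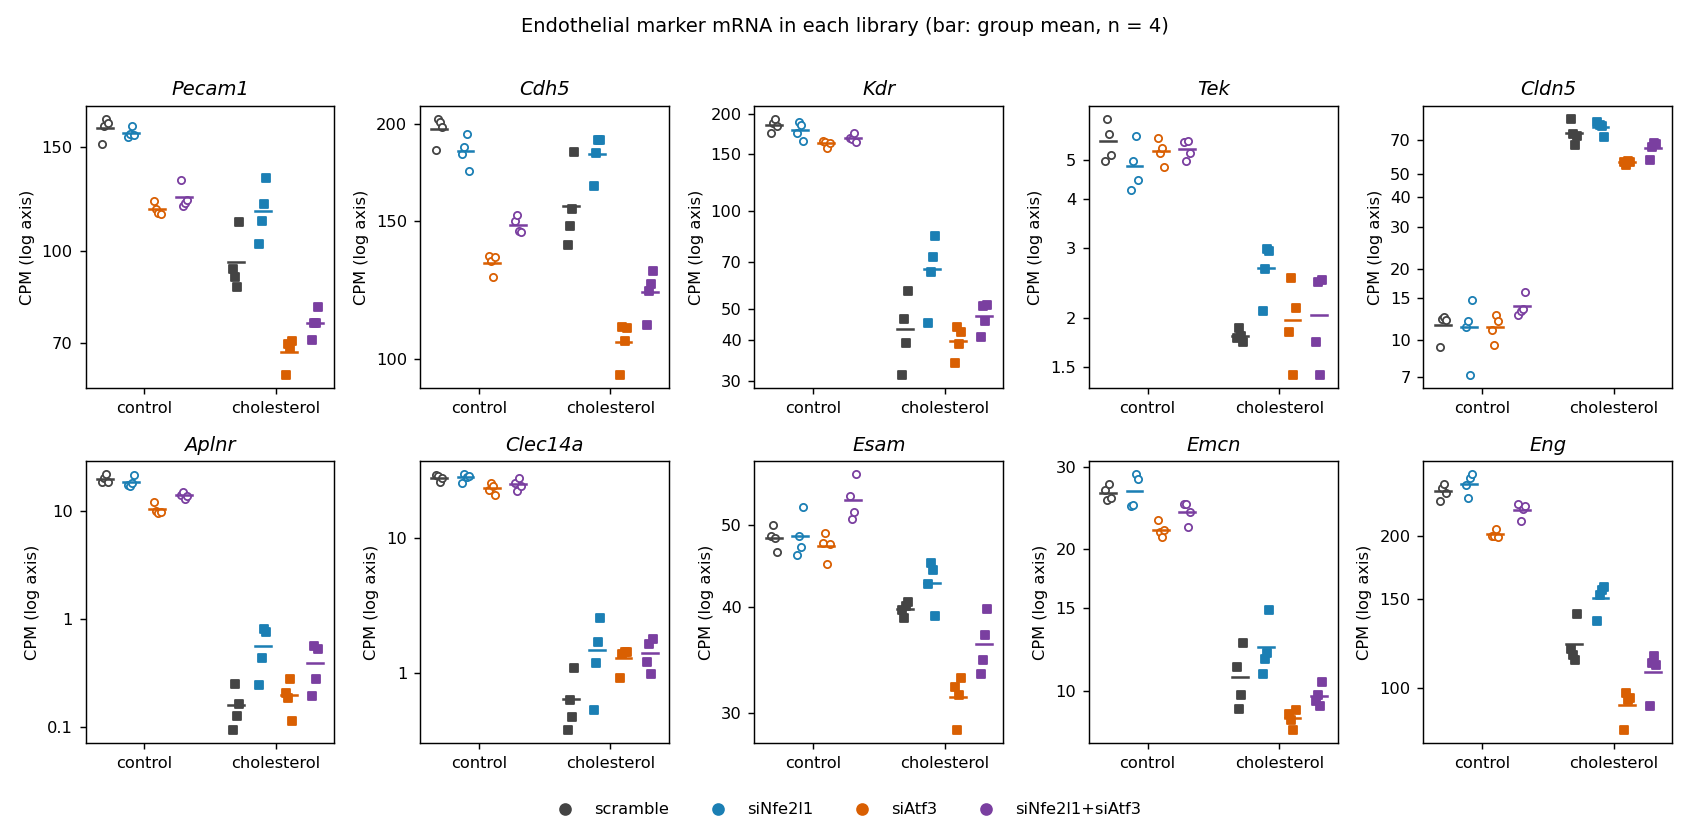
Level of each marker in every library in CPM on TMM-scaled library sizes (vertical log axis, a separate scale for each gene), with open circles for control and filled squares for cholesterol, colours for the 4 siRNA treatments and a bar at each group mean (n = 4). Aplnr and Clec14a drop by more than a decade with cholesterol, Cldn5 is the 1 marker that is higher, and Cdh5 with siNfe2l1 keeps its control level (184 against 183 CPM).

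Cholesterol against control within each silenced group asks how the markers responded when the mRNA of 1 or both factors was below that of scramble. In cells with siAtf3, 9 markers fell and 1, Cldn5, rose. In cells with both siRNAs the count was the same, and in cells with siNfe2l1 8 fell, Cldn5 rose and Cdh5 did not pass the test. An endothelial list had already been seen higher in the siNfe2l1 cholesterol libraries than in scramble. The siNfe2l1 responses and their adjusted p values, here and below, are therefore not independent of earlier results. A marker counts as changed at an adjusted p below 0.05 in edgeR's quasi-likelihood test over all genes. Over all genes tested, 58.1% were called with siAtf3 (28.6% lower, 29.4% higher), 58.7% with both (28.9% lower, 29.8% higher) and 60.1% with siNfe2l1 (29% lower, 31.1% higher). The median log2 fold change of the 10 markers was -1.23 with siAtf3, -1.18 with both and -0.80 with siNfe2l1, against 0.00, 0.00 and 0.01 over all genes. Without siNfe2l1 cholesterol libraries 3 and 4, 7 markers fell and 1 rose with siNfe2l1, with a median of -0.92. Single responses in that fit were -5.73 ± 0.22 for Aplnr, -5.01 ± 0.21 for Clec14a, -1.69 ± 0.16 for Kdr, -1.03 ± 0.19 for Tek and -0.56 ± 0.07 for Pecam1. In scramble cells, as a description, 9 markers were lower and Cldn5 was higher, with a median of -1.15, in a contrast where 65.2% of all genes were called (32.9% higher, 32.3% lower). In these bulk libraries fewer cells of a type and less RNA per cell cannot be told apart.

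Aplnr, which binds the peptides apelin and Elabela, had the lowest value of the 10 in each silenced group. With siAtf3 its level was 12.01, 10.0, 9.57 and 9.72 CPM in the 4 control libraries and 0.209, 0.185, 0.28 and 0.116 CPM in the 4 cholesterol libraries. With both siRNAs it was 14.1, 14.9, 12.9 and 13.8 CPM in control and 0.193, 0.561, 0.28 and 0.534 CPM with cholesterol. The groups were far apart in each case, and the cholesterol values rest on few reads: 21 reads over the 4 libraries with siAtf3, 43 with both siRNAs and 58 with siNfe2l1. Aplnr fell by 5.67 ± 0.21 on the log2 scale (± SE) with siAtf3 (edgeR adjusted p = 2.88e-22), by 5.13 ± 0.18 with both (adjusted p = 4.8e-23) and by 5.01 ± 0.17 with siNfe2l1 (adjusted p = 1.65e-23). In scramble cells it went from 18.5, 20.2, 21.8 and 18.6 CPM to 0.0937, 0.252, 0.128 and 0.166 CPM, the latter from 15 reads in all, a log2 difference of -6.89 ± 0.21.

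Clec14a, a C-type lectin-like glycoprotein found on vessels during angiogenesis, came next in size. With both siRNAs it was 25.5, 22.1, 27.8 and 24.02 CPM in control and 1.2, 1.65, 0.98 and 1.78 CPM with cholesterol. Cholesterol left 5.65% of its control level with both siRNAs, 5.59% with siAtf3 and 5.39% with siNfe2l1. On the log2 scale it fell by 4.14 ± 0.19 with both (edgeR adjusted p = 6.44e-18), by 4.16 ± 0.19 with siAtf3 (adjusted p = 9.62e-18) and by 4.21 ± 0.19 with siNfe2l1 (adjusted p = 3.83e-18). The scramble libraries held 29.1, 28.8, 25.9 and 27.9 CPM in control and 0.375, 0.629, 0.471 and 1.08 CPM with cholesterol, which leaves 2.33%.

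The 3 other receptors fell less. Kdr, the main receptor for VEGF-A, was at 165, 163, 157 and 163 CPM in control and 33.98, 43.9, 39.0 and 42.6 CPM with cholesterol in siAtf3 cells. It fell by 2.02 ± 0.14 on the log2 scale with siAtf3 (edgeR adjusted p = 1.96e-12), by 1.82 ± 0.14 with both and by 1.42 ± 0.14 with siNfe2l1 (adjusted p = 1.02e-09). Tek, the least abundant of the 10 in control, fell by 1.42 ± 0.15 with siAtf3, by 1.39 ± 0.15 with both and by 0.85 ± 0.15 with siNfe2l1 (edgeR adjusted p = 5.04e-06). Its cholesterol libraries held 41 to 78 reads each in the silenced groups, against 110 to 187 in control. Eng was at 199, 199.8, 206 and 199 CPM in control and 82.3, 97.4, 94.7 and 95.6 CPM with cholesterol in siAtf3 cells, so control and cholesterol libraries did not overlap. It fell by 1.12 ± 0.06 with siAtf3, by 1.06 ± 0.06 with both and by 0.75 ± 0.06 on the log2 scale with siNfe2l1 (edgeR adjusted p = 1.27e-12). Scramble values were -2.09 ± 0.14 for Kdr, -1.63 ± 0.16 for Tek and -1.004 ± 0.06 for Eng.

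Emcn, a sialomucin of veins and capillaries, was at 25.0, 25.0, 22.3 and 23.99 CPM in control and 9.5, 9.8, 9.27 and 10.4 CPM with cholesterol in cells with both siRNAs. It fell by 1.34 ± 0.08 with siAtf3, by 1.30 ± 0.08 with both and by 1.11 ± 0.08 on the log2 scale with siNfe2l1 (edgeR adjusted p = 3.31e-14). In scramble cells the difference was -1.30 ± 0.08.

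The junction genes moved in opposite directions. Cldn5, a claudin that seals tight junctions of endothelium, rose. With siAtf3 it went from 10.99, 9.52, 12.8 and 12.1 CPM to 56.4, 54.6, 56.8 and 56.4 CPM, and with siNfe2l1 from 11.4, 12.01, 7.13 and 14.8 CPM to 82.8, 80.4, 80.0 and 71.7 CPM. No control library reached the lowest cholesterol library in any of the 4 siRNA treatments. The log2 fold change was 2.80 ± 0.13 with siNfe2l1 (edgeR adjusted p = 2.72e-17), 2.31 ± 0.13 with siAtf3 (adjusted p = 1.93e-15) and 2.20 ± 0.12 with both (adjusted p = 2.87e-15). The scramble value was 2.68 ± 0.13, from 9.33, 12.3, 12.6 and 12.2 CPM to 85.6, 73.7, 66.6 and 72.7 CPM.

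The other 3 junction genes fell by small amounts. Pecam1, an immunoglobulin-domain adhesion molecule shared with platelets and leukocytes, fell by 0.80 ± 0.06 on the log2 scale with siAtf3, by 0.71 ± 0.06 with both and by 0.44 ± 0.06 with siNfe2l1 (edgeR adjusted p = 2.60e-07). Esam fell by 0.60 ± 0.06, 0.56 ± 0.06 and 0.18 ± 0.06 in that order, the last with an edgeR adjusted p = 0.00486 that became 0.0573 when siNfe2l1 cholesterol libraries 3 and 4 were left out. Cdh5, the cadherin of adherens junctions, fell by 0.34 ± 0.06 with siAtf3 (edgeR adjusted p = 1.38e-05) and by 0.29 ± 0.06 with both (adjusted p = 0.000135). With siNfe2l1 it was at 183, 187, 194 and 174 CPM in control and 167, 183, 191 and 191 CPM with cholesterol. These values overlapped, and the log2 difference was -0.01 ± 0.06 (edgeR adjusted p = 0.884). The limit on the siNfe2l1 cholesterol libraries holds for this value of Cdh5. Scramble differences were -0.76 ± 0.06 for Pecam1, -0.28 ± 0.06 for Esam and -0.33 ± 0.06 for Cdh5.

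**Figure D2:**
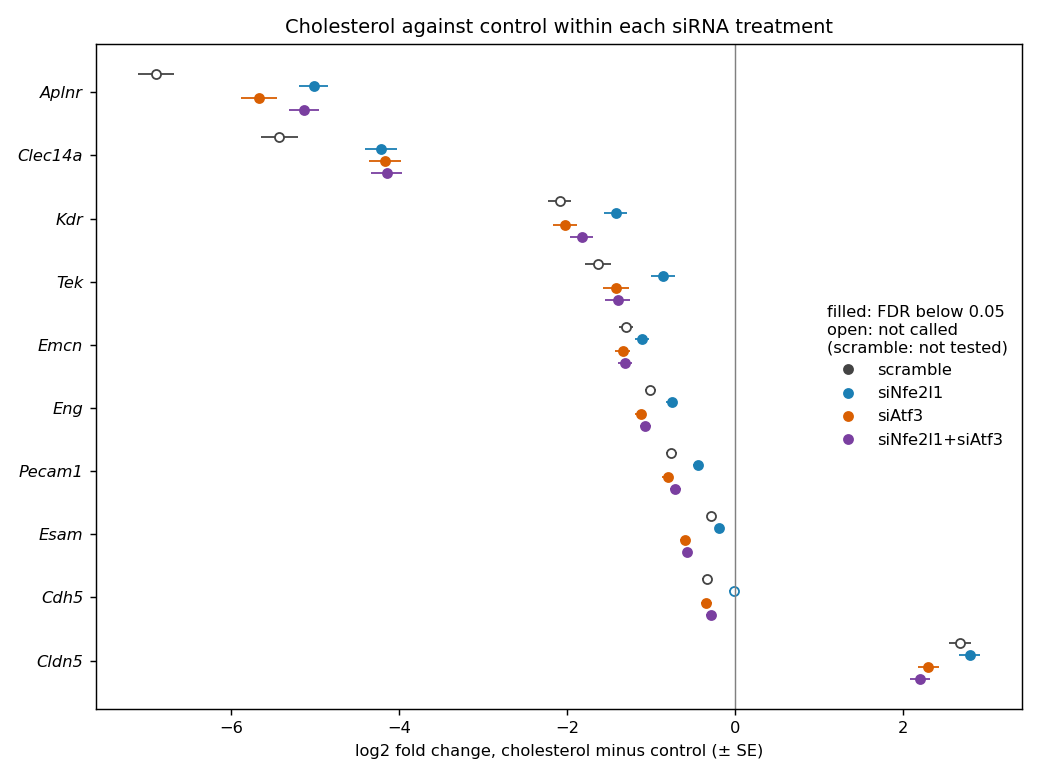
Log2 fold change of each marker, cholesterol minus control, within each siRNA treatment (horizontal axis; point and SE from the edgeR fit of all 32 libraries; filled where the adjusted p was below 0.05, open where not called, and open for scramble, which was not tested). Aplnr and Clec14a lie at -4 or lower in all 4 treatments, and Cldn5 lies above 2. Of the 4 treatments, siNfe2l1 lies nearest to 0 for each marker below 0 apart from Clec14a. For Aplnr it does so by less than its SE.

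Whether the response differed between silenced groups was tested where scramble libraries were not involved. The test against siNfe2l1 reuses cholesterol libraries in which an endothelial list had already been seen higher than in scramble, so its calls are a description. Cells with both siRNAs against cells with siNfe2l1 alone differed for 2 markers, both lower, against 2.7% of all genes called (1.98% lower, 0.718% higher). The response of Esam was lower by 0.38 ± 0.08 on the log2 scale (-0.38, edgeR adjusted p = 0.00532), and that of Eng by 0.31 ± 0.09 (-0.31, adjusted p = 0.0479). The Eng call was lost with DESeq2 size factors (adjusted p = 0.0518), with library totals (0.0891), with no filter (0.0629), with only the groups compared in the fit (0.125) and without siNfe2l1 cholesterol libraries 3 and 4 (0.103), where Cldn5 was called instead (-0.65, 0.0319) and the median of the 10 went from -0.29 to -0.18. It was lost without any 1 of the libraries of these groups apart from siNfe2l1 cholesterol library 1, with adjusted p values from 0.0598 to 0.2003. Values for Cldn5 (-0.59 ± 0.17, edgeR adjusted p = 0.0621), Cdh5 (-0.27 ± 0.09, 0.08) and Pecam1 (-0.27 ± 0.09, 0.0998) did not pass.

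Cells with both siRNAs against cells with siAtf3 alone gave 0 of 10 markers and 0 of 16984 genes (0%) with edgeR, and 0 markers with the DESeq2 Wald test. No marker had an unadjusted p under 0.05, which 666 genes had. The differences lay between -0.10 ± 0.17 for Cldn5 and 0.54 ± 0.40 for Aplnr. Against scramble, differences of response are given without a test. With siNfe2l1 they were 1.88 for Aplnr, 1.21 for Clec14a, 0.78 for Tek, 0.67 for Kdr, 0.32 for Pecam1 and 0.31 for Cdh5, and from 0.09 (Esam) to 0.25 (Eng) for the others. Without siNfe2l1 cholesterol libraries 3 and 4 they were 1.16 for Aplnr, 0.41 for Clec14a, 0.60 for Tek, 0.39 for Kdr, 0.20 for Pecam1 and 0.25 for Cdh5. With siAtf3 they were 1.23 for Aplnr and 1.26 for Clec14a, -0.38 for Cldn5 and -0.32 for Esam, and from -0.12 (Eng) to 0.21 (Tek) for the others. With both siRNAs they were 1.76 for Aplnr and 1.28 for Clec14a, -0.48 for Cldn5 and -0.29 for Esam, and from -0.06 (Eng) to 0.26 (Kdr) for the others.

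Silencing without cholesterol asks what the siRNAs alone did to the markers. With siNfe2l1 none of the 10 was called against scramble by edgeR or by the DESeq2 Wald test, and none had an unadjusted p under 0.05, against 5.99% of all genes called (3.13% higher, 2.87% lower), and 3029 genes with an unadjusted p under 0.05. The values ran from -0.20 ± 0.14 for Tek to 0.05 ± 0.06 for Eng on the log2 scale.

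With siAtf3, 5 markers fell and none rose, against 36.3% of all genes called (18.2% lower, 18.1% higher). The scramble control libraries were part of the response in which Aplnr stood out, so its test here is not independent of that choice. The median of the 10 was -0.26, against 0.01 over all genes. Aplnr fell from 18.5, 20.2, 21.8 and 18.6 CPM to 12.01, 10.0, 9.57 and 9.72 CPM (-0.94 ± 0.11, edgeR adjusted p = 1.68e-08). Cdh5 fell from 185, 203, 201 and 198 CPM to 136, 133, 127 and 135 CPM (-0.57 ± 0.06, edgeR adjusted p = 2.18e-09). Pecam1 fell from 151, 162, 167 and 165 CPM to 121, 118, 116 and 115 CPM (-0.46 ± 0.06, edgeR adjusted p = 3.69e-07). In all 3 the scramble and siAtf3 libraries did not overlap. Eng (-0.28 ± 0.06, edgeR adjusted p = 0.000431) and Emcn (-0.26 ± 0.08, adjusted p = 0.00794) fell less, while Kdr (-0.19 ± 0.13, 0.289) and Clec14a (-0.26 ± 0.13, 0.134) did not pass. Scaling by library totals alone moved the median of all genes from 0.01 to 0.15 and the share of higher calls from 49.8% to 76% in this comparison, and Eng (edgeR adjusted p = 0.0839) and Emcn (0.234) then lost their calls.

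With both siRNAs in control medium 3 markers fell and 1 rose against scramble, with 27.2% of all genes called (14.3% lower, 12.9% higher). Aplnr fell by 0.51 ± 0.11 on the log2 scale (edgeR adjusted p = 0.000491), Cdh5 by 0.40 ± 0.06 and Pecam1 by 0.39 ± 0.06. The limit on the test of Aplnr against scramble control holds here too. Esam was higher by 0.15 ± 0.06 (edgeR adjusted p = 0.0407), a call lost in 5 of 8 fits without 1 library (scramble control libraries 1, 3 and 4, and libraries 1 and 4 with both siRNAs) with adjusted p values of 0.065 to 0.163. With only these 2 groups in the fit 8 markers were called, 6 lower and 2 higher. Library totals moved the median of all genes from 0.01 to 0.11 and the share of higher calls from 47.5% to 74.8%, with 3 markers lower and 2 higher.

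Against siNfe2l1 alone, both siRNAs lowered 4 markers, with 26.8% of all genes called (14.5% lower): Aplnr by 0.41 ± 0.11, Pecam1 by 0.36 ± 0.06, Cdh5 by 0.31 ± 0.06 and Eng by 0.17 ± 0.06 on the log2 scale. The edgeR adjusted p was 0.0378 for Eng and at most 0.00476 for the others, and Eng lost its call without siNfe2l1 control library 1, 3 or 4 or library 2 or 3 with both siRNAs (0.0531 to 0.1003). With library totals, which moved the median of all genes to 0.10 and the share of higher calls from 45.9% to 73.2%, 3 were lower and 2 higher. Against siAtf3 alone, both siRNAs gave 2 markers higher, with 5.65% of all genes called (3.71% higher, 1.94% lower). These were Aplnr (0.43 ± 0.11, edgeR adjusted p = 0.015) and Esam (0.18 ± 0.06, 0.0442). Without siAtf3 control library 3 or 4 neither was called, and without siAtf3 control library 1 or 2, or library 1, 2 or 4 with both siRNAs, 1 was. With only these groups in the fit 5 markers were called, and library totals moved the share of higher calls over all genes from 65.6% to 40.1%. Comparisons of one siRNA with another share libraries with those against scramble.

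Among cells given cholesterol, siNfe2l1 is compared with scramble as a description, since an endothelial list had already been seen higher in this comparison in earlier results of these data. At the threshold used elsewhere 7 markers were higher and none lower, in a comparison where 19.9% of all genes were called (11.3% higher, 8.59% lower), and nothing is read from that count. The median of the 10 was 0.30, against 0.02 over all genes, and 0.20 without siNfe2l1 cholesterol libraries 3 and 4. Kdr was at 31.3, 46.4, 39.3 and 56.7 CPM in scramble and 45.3, 64.9, 72.3 and 83.7 CPM in siNfe2l1 libraries, a log2 difference of 0.61 ± 0.14. The ranges of Kdr overlapped, and so did those of the other markers apart from Tek, which was at 1.78, 1.89, 1.8 and 1.74 CPM in scramble and 2.09, 2.66, 2.99 and 2.95 CPM in siNfe2l1 libraries (0.57 ± 0.17). Aplnr (1.78 ± 0.40) and Clec14a (1.21 ± 0.33) rested on few reads, 58 against 15 and 154 against 60 over 4 libraries. Differences were 0.29 ± 0.06 for Pecam1, 0.30 ± 0.06 for Eng and 0.22 ± 0.06 for Cdh5.

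The count of 7 depended on which libraries entered the fit. With only these 2 groups in the edgeR fit, where Aplnr did not pass the filter, 0 of 9 markers were called and 6 had an unadjusted p under 0.05, while the DESeq2 Wald test on all groups called 7. Without siNfe2l1 cholesterol libraries 3 and 4, 1 marker was called, and Aplnr was at 1.06, Clec14a at 0.42, Kdr at 0.34 and Tek at 0.40. Leaving out library 4 of siNfe2l1 with cholesterol left 4 calls, and leaving out library 3 left 5. Library totals moved the share of higher calls over all genes from 56.9% to 72.5%, with 8 markers higher. Library 1 of that group had the lowest value for 8 of the 10 markers and library 4 the highest for 6. The other cholesterol groups showed a like order in part. Library 4 was highest for 7 markers in scramble, 7 with both siRNAs and 3 with siAtf3. Library 1 was lowest for 4, 7 and 5 markers in these groups.

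With siAtf3 and cholesterol, 6 markers were lower and 1 higher than in scramble cells with cholesterol, against 50.4% of all genes called (27.4% lower, 23% higher). The median of the 10 was -0.32, against -0.02. Scramble cholesterol libraries were part of the response known when the markers were chosen, so these tests are not independent of that choice. Cdh5 was at 139.9, 148, 156 and 184 CPM in scramble and 95.5, 110.1, 105 and 109 CPM in siAtf3 libraries (-0.58 ± 0.06, edgeR adjusted p = 9.89e-10). Pecam1 was at 93.1, 90.4, 86.9 and 112 CPM against 61.7, 69.6, 68.6 and 70.3 CPM (-0.50 ± 0.07, edgeR adjusted p = 5.70e-08). The groups did not overlap for these 2 genes. Eng (-0.40 ± 0.06), Esam (-0.35 ± 0.06), Cldn5 (-0.41 ± 0.11) and Emcn (-0.30 ± 0.09) were lower too. Emcn lost its call without scramble cholesterol library 4 (edgeR adjusted p = 0.106). The 1 higher marker was Clec14a, given as a description (1.00 ± 0.34, and 0.83 without scramble cholesterol library 1). Scaling by library totals moved the median of all genes from -0.02 to 0.17 and the share of higher calls from 45.6% to 71.2%, and Cldn5 (0.0791) and Emcn (0.334) then lost their calls.

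With both siRNAs and cholesterol, 3 markers were lower than in scramble cells and 2 higher, against 44.7% of all genes called (23.9% lower, 20.8% higher). Cdh5 (-0.36 ± 0.06, edgeR adjusted p = 9.09e-06), Pecam1 (-0.34 ± 0.06, 5.10e-05) and Eng (-0.18 ± 0.06, 0.0189) were lower. The 2 higher markers were Aplnr (1.26 ± 0.42) and Clec14a (1.11 ± 0.33), given as a description. The limit on tests against scramble cholesterol libraries holds for the 3 lower markers. Aplnr was at 1.09 without scramble cholesterol library 1, and at 1.05 and 1.08 without library 2 or 4 with both siRNAs, where it was no longer among the calls. Eng lost its call without scramble cholesterol library 4 (0.207) or library 1 with both siRNAs (0.181), and with library totals (0.723), which moved the median of all genes from -0.01 to 0.14 and the share of higher calls from 46.6% to 72.5%. With only these 2 groups in the fit 3 markers were called.

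**Figure D3:**
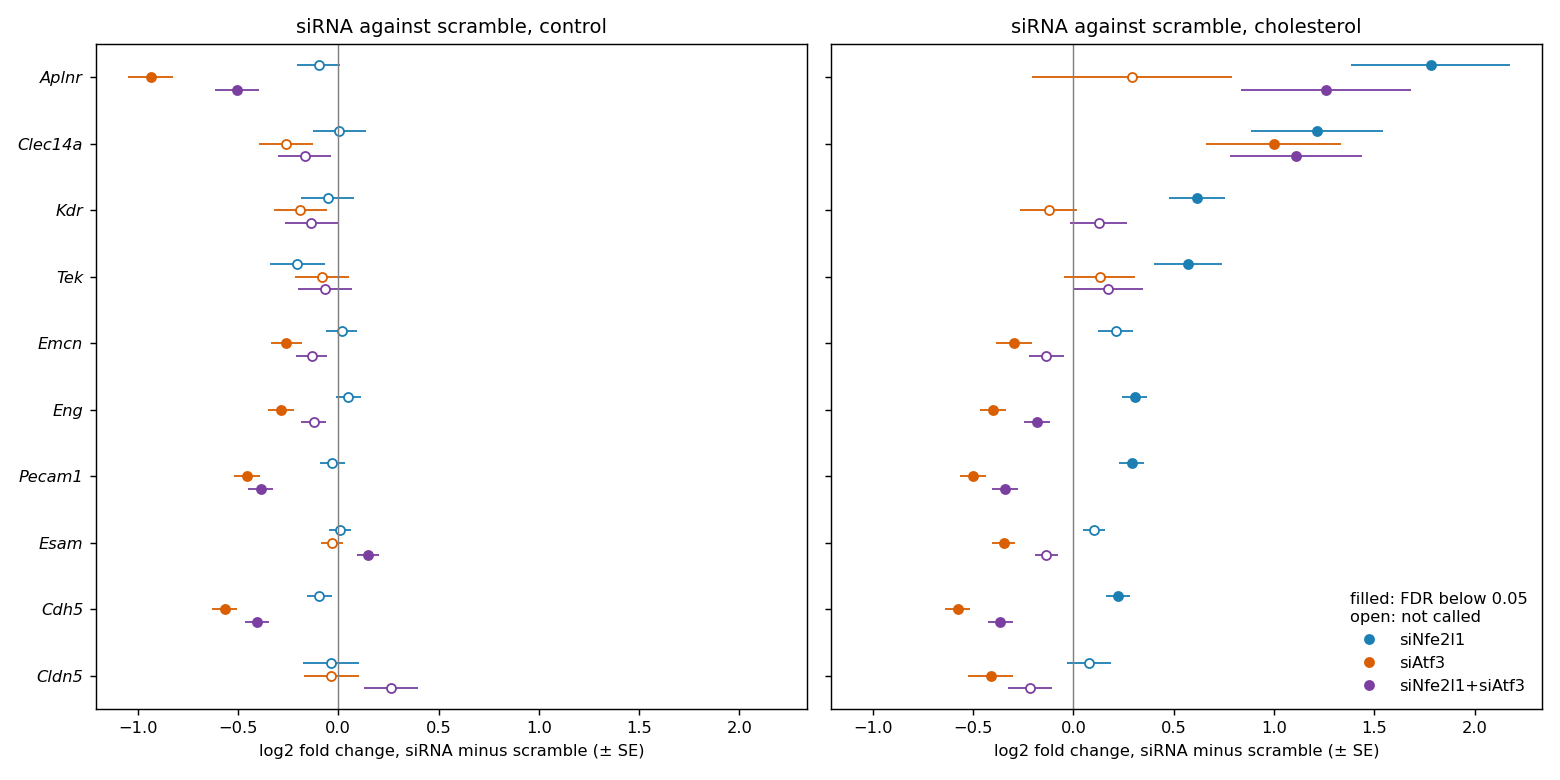
Log2 fold change of each marker, siRNA minus scramble, in control (left) and with cholesterol (right), with points and SE from the edgeR fit and filled symbols where the adjusted p was below 0.05. In control all siNfe2l1 points are open and siAtf3 lies below 0 for Aplnr, Cdh5 and Pecam1. With cholesterol, where siNfe2l1 and the points of Aplnr and Clec14a are a description, the siNfe2l1 points lie above 0 and the siAtf3 points of Cdh5, Pecam1, Eng, Esam, Cldn5 and Emcn below it.

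Cells with both siRNAs had 7 markers lower and none higher than cells with siNfe2l1 in cholesterol. Of all genes 36.6% were called (20.9% lower, 15.7% higher), and the median was -0.44 for the markers against -0.03. This comparison reuses siNfe2l1 cholesterol libraries in which an endothelial list had already been seen higher than in scramble. Its calls are therefore a description. Pecam1 was at 103, 112, 119.8 and 132 CPM with siNfe2l1 and 70.7, 75.6, 75.4 and 80.5 CPM with both (-0.63 ± 0.06, edgeR adjusted p = 9.95e-10). Cdh5 was at 167, 183, 191 and 191 CPM and 111, 122, 125 and 129.6 CPM (-0.59 ± 0.06, edgeR adjusted p = 1.69e-09). The groups did not overlap for either gene. Eng and Kdr (-0.49 ± 0.06 and -0.49 ± 0.14), Emcn (-0.34 ± 0.09), Cldn5 (-0.29 ± 0.11) and Esam (-0.24 ± 0.06) were also lower. Without siNfe2l1 cholesterol libraries 3 and 4, 5 markers were called and the median was -0.25. With library totals 5 were called too, and the share of higher calls over all genes went from 43% to 66.2%. Kdr lost its call without library 4 of that group (edgeR adjusted p = 0.0655), and Cldn5 without any 1 of the 8 libraries apart from siNfe2l1 cholesterol library 4 (0.0545 to 0.149).

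Both siRNAs against siAtf3 alone in cholesterol gave 3 markers higher and none lower, against 8.11% of all genes called (5.4% higher, 2.71% lower). These were Eng (0.22 ± 0.06, edgeR adjusted p = 0.0276), Cdh5 (0.21 ± 0.06, 0.0245) and Esam (0.21 ± 0.06, 0.0155). Without library 3 or 4 with both siRNAs 0 markers were called. Without siAtf3 library 1 or 3, or library 2 with both, 1 was called. Library totals also left 1, with the share of higher calls over all genes going from 66.5% to 45.5%.

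Other genes of vascular biology were followed as lists, to be read against the shares of all genes called in the same cholesterol responses (28.6% lower and 29.4% higher with siAtf3, 28.9% and 29.8% with both, 29% and 31.1% with siNfe2l1). Of 26 further endothelial genes, all tested, 21 fell and 3 rose with cholesterol in siAtf3 cells, 19 fell and 2 rose with both siRNAs, and 18 fell and 3 rose with siNfe2l1. Their medians were -0.94, -0.82 and -0.54. The limit on the siNfe2l1 cholesterol libraries holds for the siNfe2l1 values of these genes too. Without siNfe2l1 cholesterol libraries 3 and 4, a setting added after seeing the data for these lists, 18 fell and 2 rose with siNfe2l1, with a median of -0.64. Sox18, a transcription factor of developing vessels, fell from 64.2 ± 2.3 to 11.9 ± 1.7 CPM (SD, n = 4) with siAtf3, a log2 fold change of -2.43 ± 0.10 (edgeR adjusted p = 1.59e-20). Flt1, the decoy VEGF receptor, fell by 1.29 ± 0.08, Tie1, the orphan partner of Tek, by 1.14 ± 0.06, and Cd34, a sialomucin of vessels and precursor cells, by 1.32 ± 0.08 on the log2 scale in the same cells. Sox17, a factor of arterial endothelium, rose from 9.37 ± 0.25 to 17.2 ± 0.87 CPM with siNfe2l1 (0.88 ± 0.08, edgeR adjusted p = 1.70e-11). Erg, an ETS factor held to be selective for endothelium, stayed between 15.5 and 19.4 CPM over the 8 group means.

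Among 20 tested of 21 ligands and signalling partners of the receptors, 13 fell and 4 rose with siAtf3, 11 fell and 4 rose with both siRNAs, and 9 fell and 6 rose with siNfe2l1 (10 and 5 without the 2 libraries that stood apart). Pgf, placental growth factor, rose from 9.96 ± 0.76 to 55.6 ± 1.9 CPM with siAtf3 (2.48 ± 0.10, edgeR adjusted p = 1.38e-20). Vegfc and Vegfd, the ligands of lymphatic VEGF signalling, fell by 1.84 ± 0.11 and 0.93 ± 0.06 on the log2 scale there, and Smad6, an inhibitor of BMP signalling, fell by 1.29 ± 0.06. Apln, the ligand of Aplnr, differed by 0.01 ± 0.18 on the log2 scale with both siRNAs and was not called.

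Of 13 Notch genes of endothelium, 11 fell and none rose with siAtf3 and with both siRNAs, and 8 fell and 1 rose with siNfe2l1 (8 and 0 without those libraries). Hey1, a Notch target, fell by 1.53 ± 0.07, Notch4, an endothelial Notch receptor, by 1.23 ± 0.07, and Nr2f2, a factor of venous identity, by 1.07 ± 0.06 on the log2 scale with siAtf3. Further junction genes were mixed: of 11 tested of 14, 5 fell and 3 rose with siAtf3 and with both, and 5 fell and 5 rose with siNfe2l1 (5 and 4 without those libraries), shares close to or above those over all genes. Jam2 fell from 9.61 ± 0.71 to 2.81 ± 0.56 CPM with siAtf3 (-1.77 ± 0.16), and Nectin2 rose (0.56 ± 0.05).

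Genes that activated or flow-exposed endothelium switches on went the other way. Of 6 tested of 8, 5 rose and 1 fell in each silenced group. Klf2, a zinc-finger factor induced by shear stress, rose from 8.86 ± 0.70 to 136 ± 8.5 CPM with siAtf3 (3.94 ± 0.22, edgeR adjusted p = 4.99e-14). Icam1, a leukocyte adhesion molecule, rose from 20.6 ± 0.45 to 45.9 ± 1.5 CPM (1.15 ± 0.10) and Edn1, which codes for endothelin-1, from 24.2 ± 1.9 to 45.3 ± 2.0 CPM (0.91 ± 0.08). Vcam1, another leukocyte adhesion molecule, fell from 61.7 ± 4.5 to 25.9 ± 1.9 CPM (-1.25 ± 0.10). None of these genes is made by endothelium alone.

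**Figure D4:**
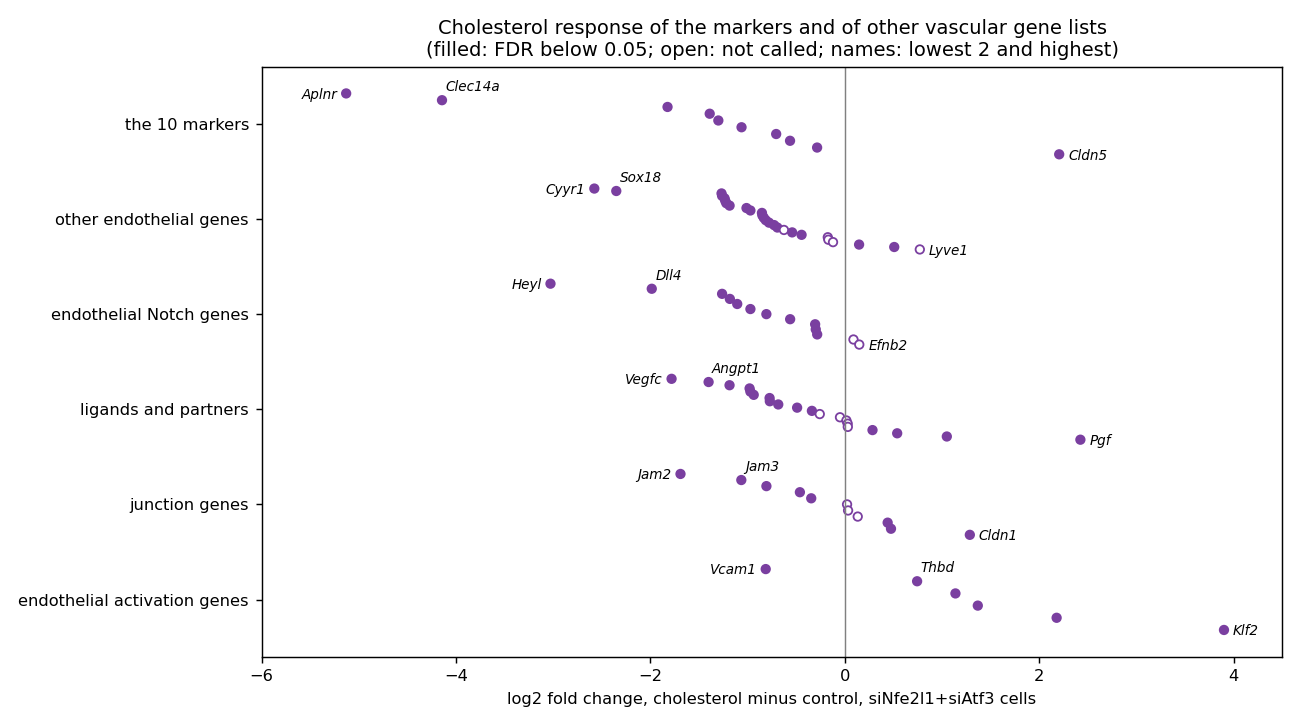
Log2 fold change, cholesterol minus control, in cells with both siRNAs (horizontal axis) for the 10 markers and 5 lists of vascular genes, 1 point for each gene, filled where the edgeR adjusted p was below 0.05. Most points of the markers, the other endothelial genes and the Notch genes lie below 0, and 5 of the 6 activation genes lie above it.

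Among the siRNA comparisons the 26 further endothelial genes showed these counts: 9 lower and none higher with siAtf3 in control, 14 higher and none lower with siNfe2l1 in cholesterol, 19 lower and 1 higher with siAtf3 in cholesterol, 8 lower and 2 higher with both in cholesterol, all against scramble. With siNfe2l1 in control 1 was higher. Against siNfe2l1 in cholesterol, both siRNAs gave 19 lower and none higher. An endothelial list had already been seen higher in the siNfe2l1 cholesterol libraries than in scramble. The count of 14 and the count of 19 against siNfe2l1 are therefore a description, and nothing is read from the count of 14. The shares over all genes were 18.2% lower with siAtf3 in control, 11.3% higher with siNfe2l1, 27.4% lower with siAtf3 and 23.9% lower with both in cholesterol, and 20.9% lower for both against siNfe2l1. The count of 14 with siNfe2l1 went to 5 without siNfe2l1 cholesterol libraries 3 and 4 and to 2 of 24 tested with only these groups in the fit, and the last count of 19 went to 15 without those libraries. Their summed level ran from 833 to 896 CPM in scramble control libraries, 734 to 754 CPM with siAtf3 in control, 523 to 595 CPM in scramble cholesterol and 383 to 430 CPM with siAtf3 in cholesterol.

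Markers of other non-adipocyte cells moved with the same conditions. Over all genes 28.6% to 29% were lower and 29.4% to 31.1% higher in these cholesterol responses. With cholesterol, 13 of 13 macrophage markers fell in siAtf3 cells and in cells with both siRNAs, and 11 with siNfe2l1. Of 11 tested of 12 fibroblast and precursor markers 10 fell and 1 rose in each silenced group, and of 12 pericyte and smooth muscle markers 8 or 9 fell and 2 rose. Of 12 adipocyte markers 10 rose with siAtf3, 9 with both and 7 with siNfe2l1, and 1 fell in each. The summed fibroblast markers went from 22544 to 23746 CPM over the 4 control libraries to 6744 to 7372 CPM over the 4 cholesterol libraries with siAtf3. The 10 endothelial markers went from 725 to 743 CPM to 374 to 420.2 CPM in the same libraries, and the adipocyte markers from 15349 to 16566 CPM to 19564 to 21827 CPM. No gene of these lists was at 0 in all libraries of a group, and their part in the endothelial values was not tested.

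Markers of other cells in the silencing comparisons are to be read against the shares of all genes called. With siNfe2l1 these were 3.13% higher and 2.87% lower in control, and 11.3% and 8.59% in cholesterol. With siAtf3 they were 18.1% higher and 18.2% lower in control, and 23% and 27.4% in cholesterol. With siNfe2l1 11 of 13 macrophage markers were higher in control and 12 in cholesterol, and their sum was 304 to 459 CPM against 229 to 266 CPM of scramble in control. In cholesterol, where the 7 higher endothelial markers are a description, the macrophage sum was 257 to 299.6 CPM against 141 to 172 CPM. Without siNfe2l1 libraries 3 and 4, 11 of 13 macrophage markers were higher there. In that control comparison none of the 10 endothelial markers was called. With siAtf3 8 of 11 fibroblast markers were lower and 1 higher in control, and 9 were lower in cholesterol. Adipocyte markers were lower for 6 of 12 and higher for 1 in control, and lower for 8 and higher for 1 in cholesterol. Macrophage markers were higher for 6 of 13 and lower for 1 in control. In cholesterol they were higher for 2 and lower for 4, near the shares over all genes. Platelet markers, which could share Pecam1, were near the bottom of the range at summed levels of 6.87 to 16.3 CPM over all libraries, with 1 of 5 genes at 0 in 6 of the 8 groups. Their part in the endothelial values was not tested.

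**Figure D5:**
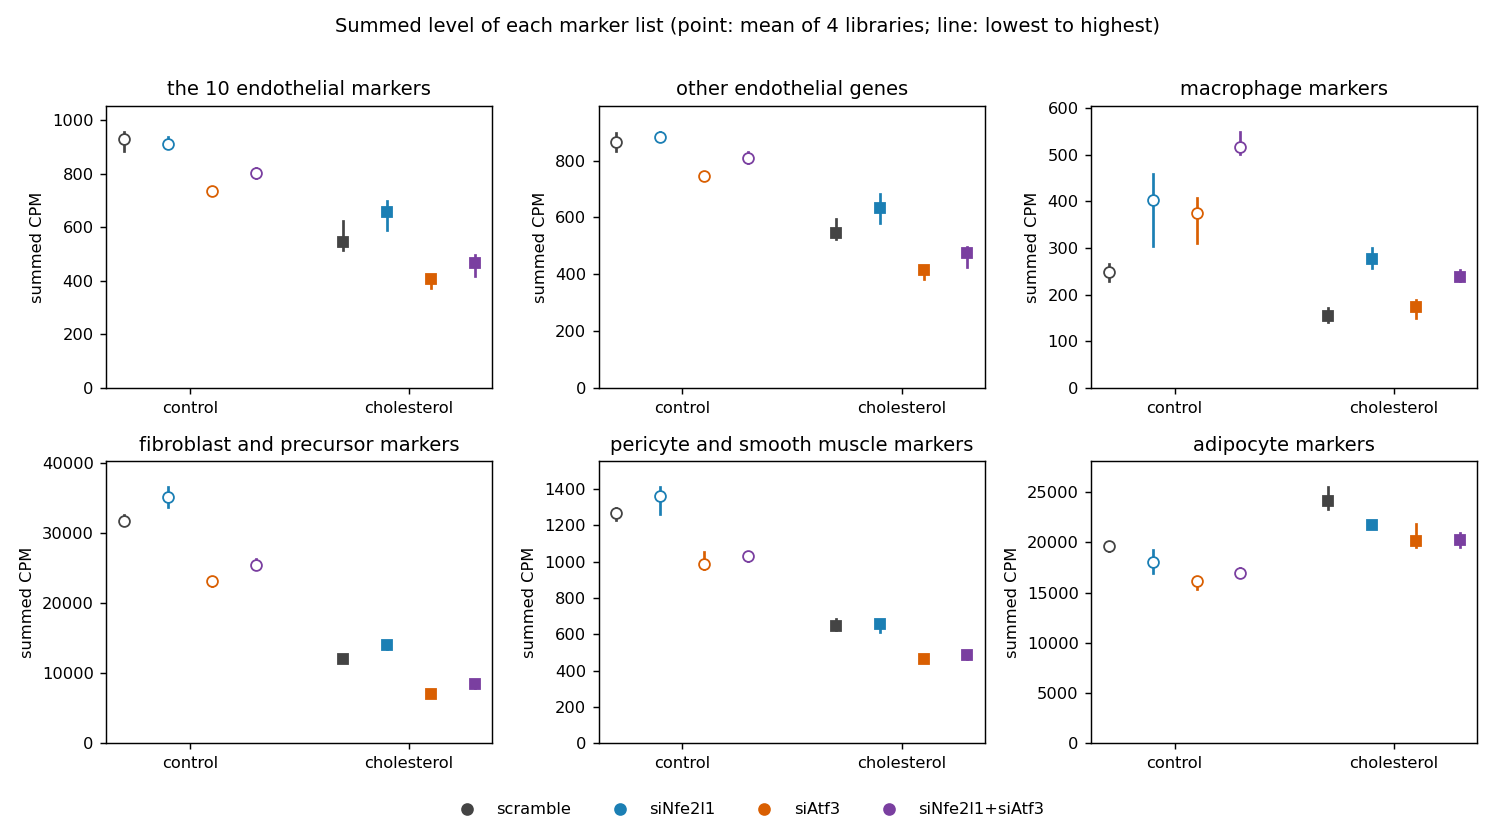
Summed CPM of each marker list by group (vertical axis from 0, a separate scale for each list; point at the mean of 4 libraries, line from the lowest to the highest library). Endothelial, fibroblast, pericyte and macrophage sums are lower with cholesterol in every siRNA treatment and adipocyte sums are higher.

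The order of the 8 group means differed between markers. For Aplnr the 4 control groups came first (19.8 ± 1.5, 18.5 ± 2.0, 13.9 ± 0.83 and 10.3 ± 1.1 CPM for scramble, siNfe2l1, both and siAtf3), with overlap only between scramble and siNfe2l1. The 4 cholesterol groups followed in the order siNfe2l1, both, siAtf3 and scramble, and each neighbour in this order overlapped the next. For Kdr the control groups ran from 185 ± 7.9 CPM in scramble to 162 ± 3.3 CPM with siAtf3, and the cholesterol groups from 66.5 ± 16 CPM with siNfe2l1 to 39.9 ± 4.4 CPM with siAtf3, with a gap between the conditions and overlap between neighbours within each. For Cdh5 the order did not follow the treatment: scramble control (197 ± 7.9 CPM), siNfe2l1 control (184 ± 8.2), siNfe2l1 cholesterol (183 ± 11) and scramble cholesterol (157 ± 19) came ahead of both siRNAs in control (149 ± 3.7) and siAtf3 in control (133 ± 3.8). Neighbours among the first 5 of these overlapped, and siAtf3 in control did not overlap the group before it. The lowest were both siRNAs with cholesterol (122 ± 8.0) and siAtf3 with cholesterol (105 ± 6.8).

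Likeness was measured as the root mean square difference between the 8 group means of 2 genes on the log2 scale, each centred on its own mean, over 12526 protein-coding genes. Among the markers themselves the closest pair was Emcn and Eng (0.15) and the most unlike was Aplnr and Cldn5 (3.99). Pecam1 was closest to Mcam (0.02), a melanoma cell adhesion molecule also found on pericytes and endothelium. Tek was closest to Sox7 (0.09), an endothelial transcription factor, and Eng to Adgrl4 (0.06), an adhesion GPCR of endothelium. Kdr was closest to Dchs1 (0.06), Cdh5 to Lgr4 (0.04), Esam to Il2rg (0.05) and Emcn to Asap3 (0.06). Cldn5 was closest to Dusp5 (0.09), a phosphatase of the ERK pathway, followed by Tnfaip6 (0.11) and Phlda1 (0.13). Clec14a was closest to Avpr1a (0.40) and Aplnr to Clec14a (0.57) and Sfrp2 (0.59). Values over 8 group means share libraries and scaling and are a description.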

How the data were processed

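Poly(A) RNA of 32 libraries was sequenced. Per the submitters' processing notes, fastp, HISAT2 2.0.5 and featureCounts 1.5.0-p3 were used with GRCm39, and the authors deposited raw read counts per gene, with no scaling. Strand use is not given in the sources used here, so overlapping genes may share reads. An added C in column names was read as cholesterol.

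The filter was filterByExpr in edgeR 4.0.16 (R 4.3.3; minimum count 10, minimum total 15). With TMM scaling (factors 0.886 to 1.1), a robust quasi-likelihood model held 8 group means and left 24 residual degrees of freedom. P-values were adjusted over all genes by Benjamini-Hochberg in each of 15 comparisons, at an FDR of 0.05. CPM use scaled library sizes. A ± after a level is an SD over 4 libraries, and after a log2 fold change an SE.

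Members and lists were chosen with earlier results of these data known, so no value supports the choice. Named are all 10 markers, defining markers of other cells, and up to 4 called genes of each list with the smallest adjusted p in a silenced group's cholesterol response (Apln after its value was seen). Library pairs within groups (48) differed beyond counting error, with chi-square per degree of freedom of 2.67 to 42.2. Same-numbered libraries of different groups were not paired in the main fit. Their 112 correlations ran from -0.078 to 0.265. The 6 above 0.1 all lay between cholesterol groups, and what libraries of the same number share there was not tested. Steps were tested on simulated data. Alternatives were DESeq2 1.42.0 size factors and Wald test, library totals, no filter, a fit of the compared groups alone, a block for the replicate number, and leaving out each library or siNfe2l1 cholesterol libraries 3 and 4. Promoters come from RefSeq.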

Additional observations from a re-analysis of the deposited data

Results flagged for a closer look

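In 80 sets of 4 libraries (10 markers in 8 groups), 3 held 1 library far from the other 3, and chance gives about 1 in 20. Cldn5 was at 9.33 CPM in scramble control library 1, against 12.2 to 12.6 CPM in the others. Clec14a was at 0.919 CPM in siAtf3 cholesterol library 1, against 1.37 to 1.44 CPM. Eng was at 206 CPM in siAtf3 control library 3, against 199 to 199.8 CPM.

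The cholesterol response differed between cells with both siRNAs and cells with siNfe2l1 alone for 2 markers by a test of the difference itself. It was lower with both for Esam (-0.38) and for Eng (-0.31). An endothelial list had already been seen higher in the siNfe2l1 cholesterol libraries than in scramble, so these calls are a description. The value for Eng missed the threshold with DESeq2 size factors, library totals, no filter, a fit of the compared groups alone, or without siNfe2l1 cholesterol libraries 3 and 4, where Cldn5 passed it (-0.65), and in 15 of 16 fits without 1 library.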

How the results depend on the processing

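No called marker value changed its sign under any alternative run. Under the alternatives other than leaving out 1 library, 436 values kept their side of the threshold, 37 lost their call and 21 gained one. With 1 library left out, 546 kept it, 70 lost it and 11 gained it. The counts for the cholesterol responses stayed at 9 with siNfe2l1, 10 with siAtf3 and 10 with both without any 1 library, and only leaving out siNfe2l1 cholesterol libraries 3 and 4 moved one, to 8. The cause of the following shifts was not tested.

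With library totals, the number of markers called went from 5 to 3 for siAtf3 against scramble in control, from 3 to 1 for both siRNAs against siAtf3 in cholesterol, from 2 to 1 for that comparison in control, and from 2 to 1 for the interaction against siNfe2l1. The interaction count was also 1 with DESeq2 size factors, with no filter and with only the groups compared. With no filter, both siRNAs against siAtf3 in control gave 1. With only the groups compared, the count went from 7 to 0 for siNfe2l1 against scramble in cholesterol, from 5 to 3 for both siRNAs against scramble in cholesterol, from 4 to 8 for that comparison in control, and from 2 to 5 for both siRNAs against siAtf3 in control. Without siNfe2l1 cholesterol libraries 3 and 4 the first of these was 1.

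Without 1 library at a time, the median of the scramble response ran from -1.24 to -1.11. Counts against scramble ran from 4 to 8 for siNfe2l1, 6 to 7 for siAtf3 and 4 to 5 for both in cholesterol, and were 0, 5 and 3 to 4 in control. For both siRNAs they ran from 6 to 7 against siNfe2l1 and 0 to 3 against siAtf3 in cholesterol, and from 3 to 5 and 0 to 2 in control. The interactions gave 1 to 2 against siNfe2l1 and 0 against siAtf3.

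The labels link same-numbered libraries only by that number, and the 6 correlations above 0.1 lay between cholesterol groups. With the replicate block, counts were 5 for siAtf3 in control, 7 for siNfe2l1 in cholesterol, 6 for both siRNAs in cholesterol against scramble and 3 for the interaction against siNfe2l1. With 2 to 6 reads of Aplnr in each scramble cholesterol library, differences among cholesterol groups rest on few reads.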
